A study of Mus musculus with 6 samples.

Results

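The genes described here encode NADPH oxidases, the factors that mature or anchor them, and secreted antioxidant enzymes. They are Duox1, Duoxa1, Duox2, Duoxa2, Nox1, Nox4, Cyba, Cybb, Sod3 and Gpx3, which make up 10 of the 27179 genes in the count table. The list was chosen from the measured difference between CD34 high and CD34 low fibroblasts in these same libraries, so the size and direction of that difference in the 10 genes are given as a description. Calls on the 10 genes are counted beside the share over all genes. Nothing is read from that count, or from calls on these genes under other settings. Of the 10 genes, 9 had enough reads to enter the fit across 15219 genes, and Nox1 did not.

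RNA-seq was performed on Pdgfra-positive stromal cells sorted from mammary glands of FVB/N mice during puberty, at 6 weeks of age. The study's methods name the strain FVB/NJ. The cells were negative for CD24 and for lineage markers of blood and endothelium, and each preparation was divided into a CD34 high and a CD34 low fraction. There were 3 pools of 2 mice, each giving 1 library per fraction, so the 6 libraries form 3 pairs and the glands of single mice cannot be told apart. The labels name no treatment and no engineered allele in either group. Because each value is an average over a sorted fraction, a lower level may come from fewer cells with the transcript or from less transcript per cell, and these cannot be told apart.

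NADPH oxidases move electrons from NADPH across a membrane onto oxygen. NOX1, NOX2 (encoded by Cybb) and NOX4 sit in the membrane together with p22phox, the product of Cyba. NOX2 is best known from the oxidative burst of phagocytes and NOX1 from colon epithelium, and both release superoxide, whereas NOX4 is largely constitutively active and releases mainly hydrogen peroxide. The dual oxidases DUOX1 and DUOX2 release hydrogen peroxide at the cell surface, are activated by calcium, and leave the endoplasmic reticulum only with their maturation factors DUOXA1 and DUOXA2. They are known from the thyroid, where the peroxide is used in hormone synthesis, and from mucosal epithelia. Outside the cell, SOD3 binds to matrix and converts superoxide to hydrogen peroxide, and the selenoprotein GPX3 reduces hydrogen peroxide with glutathione.

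The libraries held between 28764779 and 52402410 counts on genes. Values are given as CPM, the counts of a gene scaled to a common library size after TMM scaling, whose factors lay between 0.967 and 1.04, and as RPKM, the CPM per kilobase of the deposited gene length, where genes are compared with each other. Cd34, which checks the sort, reached 2571 ± 75.2 CPM (SD, n = 3) in CD34 high and 634 ± 158 CPM in CD34 low libraries. Fibroblast markers were abundant in both fractions, with summed levels of 9 genes (among them Col1a1, Dcn and Pdgfra) of 58952 to 77539 CPM in CD34 high and 94369 to 104294 CPM in CD34 low libraries. In edgeR's quasi-likelihood test, 5 of these 9 markers were higher in CD34 low and 1 in CD34 high. With Benjamini-Hochberg adjustment and a threshold of 0.05, 16.9% of the tested genes were higher in CD34 high, 18.7% were higher in CD34 low and 35.6% differed in either direction. In 50.1% of the tested genes, the CPM values of the fractions did not overlap. The mouse pools are the only replication. Unless the pool is named as a block, each p-value sets the difference against the spread between libraries of a fraction. The pairing by pool is left out of it.

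The 4 Duox genes lie side by side on chromosome 2 (GRCm38) within 67536 bp, with no other gene of the table between them. Duox2 (chr2:122280437-122298165, minus strand) and Duoxa2 (chr2:122298900-122302885, plus strand) point away from each other with 734 bp between their starts. Duoxa1 (chr2:122303549-122313730, minus strand) and Duox1 (chr2:122315672-122347972, plus strand) form a further such pair, with 1941 bp between the starts. The 4 promoter windows are shown because the genes of each pair share the stretch between their starts and all 4 had higher mean levels in CD34 high cells. Each is RefSeq sequence of GRCm38.p6, 250 bases before to 50 bases after the start, read 5' to 3' on the strand of its gene, with matches to the searched motifs in capitals. The windows cover chr2:122315422-122315721 for Duox1, chr2:122313681-122313980 for Duoxa1, chr2:122298178-122298477 for Duox2 and chr2:122298650-122298949 for Duoxa2. RefSeq places the start of Duox2 upstream of the bounds in the count table.
Duox1: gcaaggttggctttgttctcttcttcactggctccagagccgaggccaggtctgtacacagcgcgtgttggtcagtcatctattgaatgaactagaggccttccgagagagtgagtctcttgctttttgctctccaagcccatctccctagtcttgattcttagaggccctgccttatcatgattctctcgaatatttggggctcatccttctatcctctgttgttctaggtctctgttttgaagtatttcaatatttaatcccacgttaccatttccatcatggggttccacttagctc
Duoxa1: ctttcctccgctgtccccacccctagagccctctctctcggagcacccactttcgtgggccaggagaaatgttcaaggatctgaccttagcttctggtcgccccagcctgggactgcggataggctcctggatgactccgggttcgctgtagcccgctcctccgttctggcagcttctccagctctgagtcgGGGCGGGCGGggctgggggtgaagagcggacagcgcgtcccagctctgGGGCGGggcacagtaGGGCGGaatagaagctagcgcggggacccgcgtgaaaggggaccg
Duox2: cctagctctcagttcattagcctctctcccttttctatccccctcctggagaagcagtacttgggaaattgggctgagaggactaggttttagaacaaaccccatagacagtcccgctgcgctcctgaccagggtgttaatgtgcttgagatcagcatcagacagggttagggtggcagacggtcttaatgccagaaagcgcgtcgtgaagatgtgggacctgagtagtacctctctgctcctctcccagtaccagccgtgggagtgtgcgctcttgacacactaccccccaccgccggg
Duoxa2: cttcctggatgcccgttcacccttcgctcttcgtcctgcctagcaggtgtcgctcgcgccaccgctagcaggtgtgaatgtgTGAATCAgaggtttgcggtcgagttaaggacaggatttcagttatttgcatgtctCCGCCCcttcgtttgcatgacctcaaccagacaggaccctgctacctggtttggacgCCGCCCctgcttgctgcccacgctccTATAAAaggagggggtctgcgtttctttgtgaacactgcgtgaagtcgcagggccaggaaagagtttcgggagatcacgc

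The motifs searched on both strands were the TATA box TATAAA, the GC box GGGCGG, the AP-1 site TGANTCA and the core of the antioxidant response element TGACNNNGC. Among 32851 windows of the same length they were present in 13.6%, 35.7%, 7.81% and 12.4%, respectively. The Duoxa1 window held 4 GC boxes, starting at -58, -54, -10 and 5 with the first base of the gene counted as 0, of which the first pair overlap each other. The Duoxa2 window held a TATA box at -30, GC boxes at -113 and -56 and an AP-1 site at -168. None of the 4 motifs occurred in the Duox1 and Duox2 windows. CpG dinucleotides numbered 22 in the Duoxa1, 19 in the Duoxa2, 10 in the Duox2 and 6 in the Duox1 window, against a median of 7. In each divergent pair the maturation factor thus had the larger number of CpG dinucleotides. A window was found for 9 of the 10 genes. In the other windows there were GC boxes for Nox4 (1), Cyba (2) and Gpx3 (1), and an AP-1 site for Cybb. A match says only that these letters are present.

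The Duox genes showed the largest separation of the fractions among the 10 genes. Duox1 was present at 154, 164 and 169 CPM in CD34 high pools 1, 2 and 3, and at 2.64, 4.46 and 5.24 CPM in the matching CD34 low libraries. The CD34 high libraries lay close together and far above every CD34 low library. The means of 163 ± 7.79 and 4.11 ± 1.34 CPM (SD, n = 3) correspond to a log2 fold change of 5.33 (SE 0.25, 95% interval 4.76 to 5.89), which ranked 58 of 15219 genes towards CD34 high. Within the pools the log2 difference was 5.84, 5.19 and 5.0.

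Duoxa1, whose product brings DUOX1 to the surface, was at 148, 130 and 137 CPM in the CD34 high libraries of pools 1, 2 and 3. In CD34 low libraries it was at 2.18, 3.60 and 3.34 CPM. Every CD34 high value was thus far above every CD34 low value, with a log2 fold change of 5.53 (SE 0.21). Per length, Duoxa1 transcripts outnumbered Duox1 transcripts in each library, with an RPKM ratio of 3.01 ± 0.325 (SD, n = 3) in CD34 high and 2.66 ± 0.363 in CD34 low cells. The ratio was 3.38, 2.79 and 2.85 in CD34 high pools 1, 2 and 3 and 2.90, 2.84 and 2.24 in CD34 low. It was higher in CD34 high in pools 1 and 3 and slightly lower in pool 2.

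Duox2, the paralogue best known from the thyroid, was less abundant, at 19.2, 14.2 and 10.3 CPM in CD34 high pools 1, 2 and 3. It was near the limit of detection in CD34 low libraries, at 0.166, 0.252 and 0.321 CPM from 9, 7 and 10 counts. The fractions did not overlap, and the log2 fold change was 5.94 (SE 0.35). Pool 1 had the highest Duox2 level of the CD34 high libraries and the lowest of the CD34 low libraries, giving a log2 difference of 6.48 in pool 1, 5.56 in pool 2 and 4.80 in pool 3. The RPKM ratio of Duox1 to Duox2 was 6.95, 9.97 and 14.2 in CD34 high pools 1, 2 and 3, against 13.7, 15.3 and 14.1 in CD34 low, so that it was lower in CD34 high in pools 1 and 2 and nearly equal in pool 3. The length given for Duox2, 4554 bases, is close to its coding sequence of 4551 bases, and the treatment of reads that match both paralogues is not given in the sources used here, so the levels of Duox2 relative to Duox1 are uncertain.

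Duoxa2, the partner of DUOX2, had 54, 37 and 27 counts in CD34 high pools 1, 2 and 3, equal to 1.21, 1.02 and 0.595 CPM. In CD34 low libraries it had 1, 0 and 0 counts. All CD34 high values were above the CD34 low ones, and the CPM of the summed counts, 118 against 1, differed 106-fold with an interval of 18.6 to 4210 that covers counting error only. The fitted fold change of this gene depends on the prior count and is not given.

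**Figure D1:**
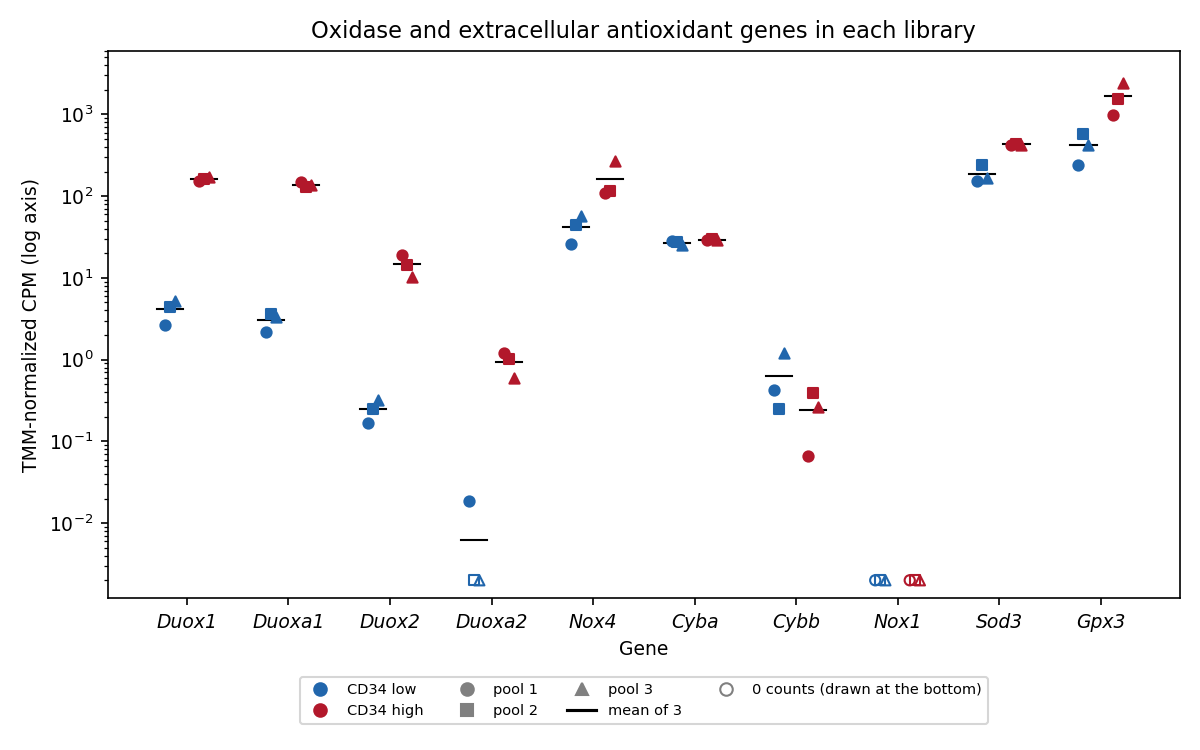
TMM-normalized CPM (log axis) of the 10 genes in each of the 6 libraries, with CD34 low in blue, CD34 high in red, a marker shape for each mouse pool and a bar at the mean of 3. The 4 Duox genes show wide gaps between fractions (Duox1 154 to 169 against 2.64 to 5.24 CPM), Cyba is nearly level, and Cybb overlaps, while libraries with 0 counts are drawn as open symbols at the bottom.

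Markers of other cells were measured beside these results. Of 8 keratinocyte markers, Krt1, Krt77 and Ivl were at 0 in all libraries. The summed level of the 8 was 32.6 to 50.5 CPM in CD34 high and 4.15 to 7.52 CPM in CD34 low libraries. Dmkn (22.6 against 0.176 CPM), Krtdap (8.56 against 0.113 CPM) and Krt10 (8.77 against 5.18 CPM) made up nearly all of the sum and were the 3 of 4 tested markers that were higher in CD34 high by edgeR's test. Among 7 luminal epithelial markers, with sums of 75.3 to 105 against 37.2 to 55.8 CPM, Krt19 and Cldn3 were higher in CD34 high, whereas the defining marker Epcam was at 5.96 ± 1.46 and 4.82 ± 1.17 CPM (SD, n = 3) and did not pass. Most of the luminal difference came from Krt19 (50.7 against 8.03 CPM). Krt8 (15.7 against 15.1 CPM), Krt18 (9.15 against 8.42 CPM), Elf5 and Csn3 did not pass either. Of 5 basal epithelial markers, with sums of 10.2 to 19.4 against 4.06 to 4.94 CPM, only Oxtr was higher in CD34 high. Oxtr, at 10.5 against 0.296 CPM, largely carried that difference. Krt5 (1.20 against 0.916), Krt14 (1.29 against 1.51), Krt17 (0.553 against 0.772) and Trp63 (0.527 against 1.00 CPM) did not pass. The part of such cells in the Duox levels was not tested.

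The genes next to the cluster were much closer between fractions. Shf, an adaptor protein gene whose 3' end lies 920 bp past that of Duox1, was at 10.3 ± 0.880 CPM (SD, n = 3) in CD34 high and 9.74 ± 0.670 CPM in CD34 low libraries, with a log2 fold change of 0.08 that did not pass (adjusted p = 0.679, edgeR). Sord, which encodes sorbitol dehydrogenase and lies 15100 bp from Duox2, was higher in CD34 high by 0.91 log2 units (SE 0.18, adjusted p = 0.00451, edgeR). Rps12-ps10, a ribosomal protein pseudogene whose reads may come from its parent gene, was higher by 0.62 log2 units (adjusted p = 0.00247, edgeR). Terb2, Slc28a2 and Bambi-ps1 had too few reads to be tested.

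**Figure D2:**
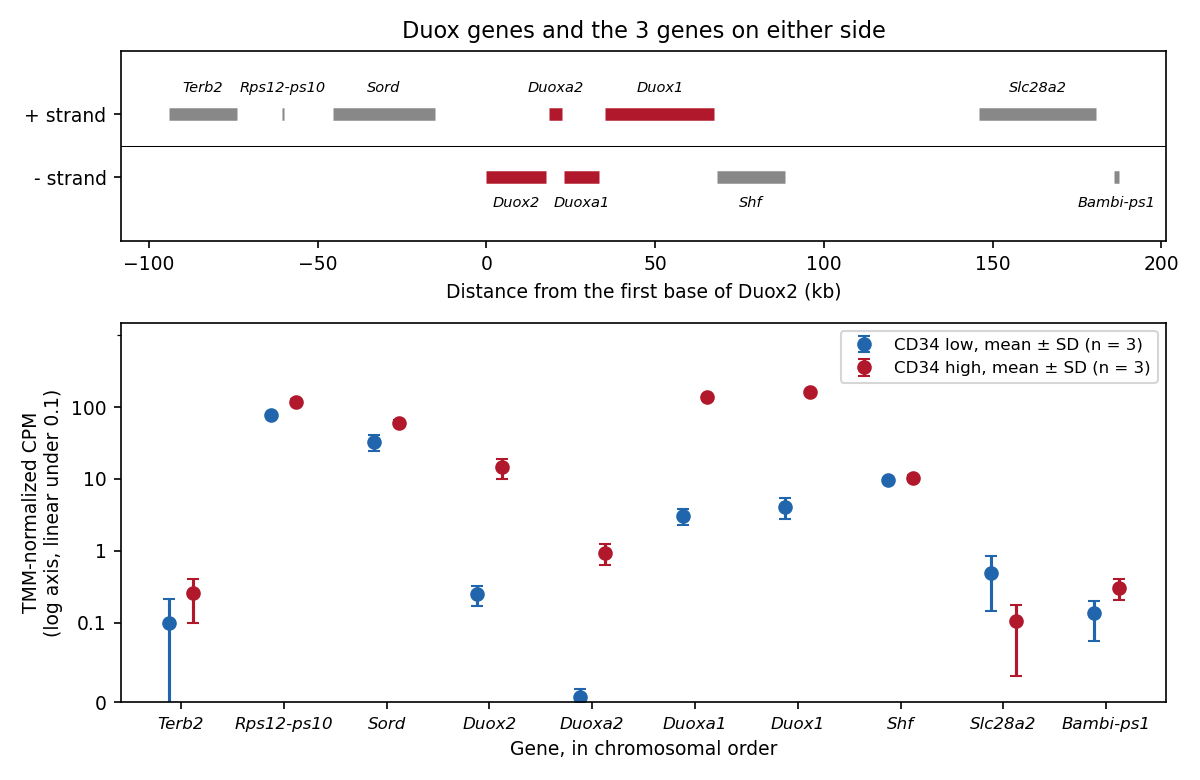
Upper panel, the Duox genes (red) and the 3 genes on either side (grey) by distance in kb from the first base of Duox2, drawn by strand; lower panel, mean TMM-normalized CPM ± SD (n = 3) of each gene on a log axis that is linear under 0.1. The 4 Duox genes show wider gaps between CD34 high (red) and CD34 low (blue) than Sord (61.0 against 32.6 CPM) and Shf (10.3 against 9.74 CPM).

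Genes whose pattern was most like that of Duox1 were ranked by Pearson's r over the log2 CPM of the 6 libraries, among 11714 genes with a mean log2 CPM of at least 1. The top 5 were Pygl (glycogen phosphorylase of liver type), Aldh1a3 (a retinaldehyde dehydrogenase), Cd55 (a complement inhibitor), Car8 and Rab32 (a small GTPase), with r from 0.9991 to 0.9999. The 6 values fall into the sorted fractions, so r mainly carries the difference between them and is a description only. Because they were picked for this pattern, their differences are given without a test. Aldh1a3 was at 4.66 ± 1.69 CPM in CD34 low and 441 ± 39.6 CPM (SD, n = 3) in CD34 high cells, a log2 fold change of 6.59 (SE 0.31). Cd55 was at 35.8 ± 9.41 and 593 ± 29.3 CPM in CD34 low and CD34 high cells, a log2 fold change of 4.05 (SE 0.22). In all 5 genes, as in Duox1, the CD34 low library of pool 1 had the lowest value.

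Among the NOX catalytic subunits, Nox4 was the main one detected. Nox4 (chr7:87246795-87398606, plus strand) was at 108, 117 and 266 CPM in CD34 high pools 1, 2 and 3, and at 25.8, 44.6 and 57.1 CPM in CD34 low. The fractions did not overlap, but the CD34 high library of pool 3 was 2.28 times the next. The log2 fold change was 1.95 (SE 0.39), with differences within pools of 2.07, 1.39 and 2.22, and was 1.42 without the CD34 high library of pool 3. That library also stood apart more widely, since 1085 genes (7.13% of those tested) were at least 1.5 times both other CD34 high libraries in it, against 340 (2.23%) in pool 1 and 289 (1.90%) in pool 2.

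Cyba (chr8:122424771-122432940, minus strand), whose product p22phox stabilises NOX4 and NOX2, was nearly level. It was at 29.3, 29.8 and 29.0 CPM in CD34 high pools 1, 2 and 3 and 27.9, 27.6 and 25.1 CPM in CD34 low. The CD34 high values were all slightly above the CD34 low values, with a log2 fold change of 0.13 (SE 0.11, 95% interval -0.12 to 0.37).

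Cybb (chrX:9435252-9469324, minus strand), the catalytic subunit of the phagocyte oxidase, was barely detected, with 3, 14 and 12 counts in CD34 high pools 1, 2 and 3 and 23, 7 and 38 counts in CD34 low. These correspond to 0.0671, 0.386 and 0.265 CPM and to 0.424, 0.252 and 1.22 CPM. The fractions overlapped, since pool 2 had more Cybb in its CD34 high library, and the log2 fold change was -1.41 (SE 0.74, 95% interval -3.09 to 0.28). It was -0.55 without the CD34 low library of pool 3, -0.66 without pool 3, -0.92 without the CD34 high library of pool 1 and -2.25 without pool 2. Leukocytes express this gene strongly. The 19 leukocyte markers summed to 22.9 to 26.2 CPM in CD34 high and 15.9 to 18.4 CPM in CD34 low libraries, none was at 0 in all 6, and 7 could be tested. The T cell marker Cd3e largely carried the sum in CD34 high libraries. The mean of Cd14 (4.18 CPM) was above that of Cd3e in CD34 low libraries. In edgeR's test Cd3e (14.9 against 3.78 CPM) was higher in CD34 high, and Lyz2 (0.238 against 0.967 CPM) and the B cell marker Cd79a were higher in CD34 low. The general marker Ptprc was at 0.149 CPM in CD34 high and 0.252 CPM in CD34 low. Most macrophage markers had lower means in CD34 high, several of them at a few counts. Among them were C1qa at 0.136 against 0.855, Mrc1 at 0.133 against 0.522 and Csf1r at 0.544 against 1.05 CPM. Cd68 was at 2.04 against 3.32 and Itgam at 0.0594 against 0.234 CPM. Only Cd14, at 4.65 against 4.18 CPM, and Spi1, at 0.0465 against 0.0107 CPM, had higher means there. Csf1r, Cd68 and Cd14 were tested and did not pass. In CD34 low pools 1, 2 and 3, C1qa had 48, 2 and 50 counts and Mrc1 had 22, 1 and 35. Both were lowest in pool 2, as was Cybb. Csf1r, at 1.05, 1.26 and 0.836 CPM, was highest in pool 2. Itgam, at 0.277, 0.360 and 0.0643 CPM, was also highest in pool 2. Cd68, at 4.04, 3.38 and 2.54 CPM, was lowest in pool 3. These macrophage markers were named after their values were seen, and the part of leukocytes in the Cybb level was not tested. Nox1 (chrX:134087146-134111708, minus strand) had 0 counts in all 6 libraries, which allows up to 0.0553 to 0.108 CPM, the level of 3 counts in each library.

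Both secreted antioxidant genes were abundant in each fraction. Sod3 (chr5:52363804-52369738, plus strand) was at 423, 439 and 426 CPM in CD34 high pools 1, 2 and 3, and at 151, 241 and 169 CPM in CD34 low. The CD34 high libraries were almost equal, with a coefficient of variation of 2.03% against 25.5% in CD34 low, and the fractions did not overlap. The log2 fold change was 1.20 (SE 0.18), and within pools it was 1.48, 0.87 and 1.34.

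Gpx3 (chr11:54902853-54910387, plus strand) had the highest level of the 10 genes, at 991, 1556 and 2431 CPM in CD34 high pools 1, 2 and 3 and at 242, 579 and 427 CPM in CD34 low. All CD34 high values were above all CD34 low values, although the lowest, in pool 1, was under 2 times the highest CD34 low value. The log2 fold change was 2.00 (SE 0.38), with 2.03, 1.43 and 2.51 within pools. Without the CD34 high library of pool 3, which held 1.56 times the level of the next, it was 1.62. The RPKM ratio of Gpx3 to Sod3 was 3.15, 4.76 and 7.67 in CD34 high pools 1, 2 and 3, and 2.15, 3.22 and 3.40 in CD34 low. It was higher in the CD34 high library of each pool, while the ranges over pools overlapped.

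GPX3 carries selenocysteine in its active site, encoded by a TGA codon that otherwise stops translation. The codon is shown because it links this gene to the selenium genes described further on. In the GENCODE vM21 annotation of GRCm38 it is codon 73 of Gpx3, in exon 2 of 5 of transcript ENSMUST00000082430.9, at chr11:54907256-54907258 on the plus strand. It is in capitals in the 27 bases of coding sequence around it.
Gpx3: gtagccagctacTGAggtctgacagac

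Counting calls over the list, 7 of the 9 tested genes passed an adjusted p of 0.05 in edgeR's test, all higher in CD34 high, and 8 of 9 had fractions that did not overlap. The shares over all tested genes were 16.9% higher in CD34 high and 50.1% without overlap. As the genes were chosen on this contrast, these counts are no test of it. A filter of at least 10 counts in every library left 5 calls, since Duox2 and Duoxa2 no longer entered the fit.

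**Figure D3:**
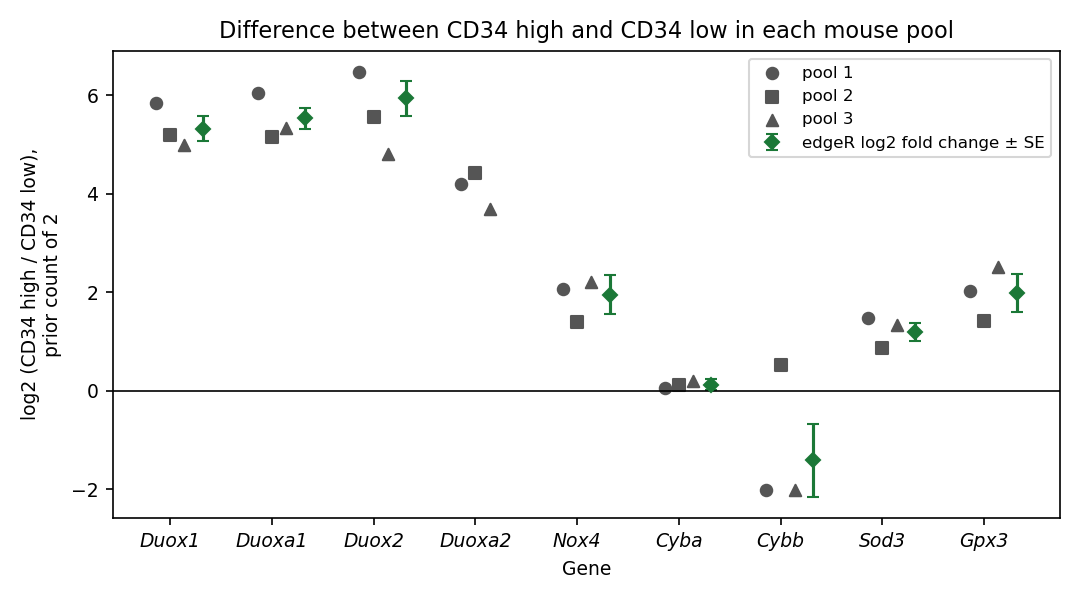
Log2 ratio of CD34 high to CD34 low CPM, with a prior count of 2, in each mouse pool (grey symbols) and edgeR's log2 fold change ± SE (green) for the 9 tested genes. Pools 1 to 3 lie between 5.0 and 5.84 for Duox1, near 0 for Cyba and on both sides of 0 for Cybb. No fitted value is drawn for Duoxa2.

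On the RPKM scale, the order of mean levels in CD34 high cells was Gpx3 (1090), Sod3 (210), Duoxa1 (92.6), Nox4 (46.8), Cyba (38.7), Duox1 (30.9), Duox2 (3.20), Duoxa2 (0.591) and Cybb (0.0504). The values of Nox4, from 30.9 to 76.1 RPKM, overlapped those of Cyba and Duox1, and the other neighbours in the order did not overlap. In CD34 low cells the order of mean RPKM was Gpx3 (273), Sod3 (91.4), Cyba (35.4), Nox4 (12.1), Duoxa1 (2.03), Duox1 (0.781), Cybb (0.133), Duox2 (0.0541) and Duoxa2 (0.00386). There Cybb and Duox2 overlapped. Duoxa1 thus stood above Cyba in every CD34 high library and below it in every CD34 low library, whereas Duox1 stood below Cyba in all 6. Gpx3 made up 61.4% to 78.0% of the summed RPKM of the 10 genes in CD34 high and 57.0% to 69.1% in CD34 low libraries.

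Other genes of oxidant metabolism were taken from 9 lists of 78 genes in all, which exclude the 10 genes above. Of the 66 that could be tested, 22 (33.3%) passed in edgeR's test, close to the 35.6% over all genes, with 15 higher in CD34 high and 7 higher in CD34 low. Their median log2 fold change was 0.13, against -0.01 over all genes tested. Without pool 2, 14 passed. Leaving out any pool or library also lowered the count over all genes, from 5411 to between 3468 and 5236. Nothing is therefore read from the leave-out counts of lists. With the mouse pool as a block, 40.5% of all tested genes passed, which is the share to set beside the blocked counts of single lists.

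Of 11 partners of the oxidases, 6 had enough reads to be tested. Of the 6 (16.7% passed, against 35.6% over all genes), only Rac1, a GTPase that activates NOX1 and NOX2, was higher in CD34 high, by 0.54 log2 units (SE 0.13, adjusted p = 0.0140, edgeR). It did not pass without pool 1 (adjusted p = 0.0680), without pool 2 (0.162) or without the CD34 high library of pool 2 (0.0666). With the pool block 3 of the 6 passed, against 40.5% over all genes, with Rac3 (adjusted p = 0.0365) and Cybc1 (0.0359) added.

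Of 7 tested genes among 8 other oxidant-producing enzymes, 3 were higher in CD34 high and 2 in CD34 low (71.4%, against 35.6% over all genes). Without pool 3, when fewer genes also passed over all, 2 of the 7 passed. Xdh, the xanthine oxidoreductase, was at 474, 529 and 889 CPM in CD34 high and 163, 344 and 225 CPM in CD34 low pools 1, 2 and 3, a log2 fold change of 1.37 (adjusted p = 0.00914, edgeR). The mitochondrial amine oxidase Maob was higher in CD34 high by 0.90 log2 units (adjusted p = 0.0134, edgeR). Without pool 3 neither passed (adjusted p = 0.0803 for Xdh and 0.10 for Maob). Nos1, the neuronal nitric oxide synthase, went the other way, at 0.604, 1.30 and 0.485 CPM in CD34 high and 30.8, 34.9 and 31.0 CPM in CD34 low pools 1, 2 and 3, with a log2 fold change of -5.37 (adjusted p = 6.92e-06, edgeR). The surface amine oxidase Aoc3 was also higher in CD34 low, with a log2 fold change of -1.39 (adjusted p = 0.00158, edgeR). Pericyte and smooth muscle markers moved in the same direction. Their sums were 14.3 to 17.8 CPM in CD34 high and 124 to 160 CPM in CD34 low libraries. Schwann markers did so as well, with sums of 6.75 to 7.03 against 15.5 to 20.9 CPM. Of 7 endothelial markers, 3 were higher in CD34 low and 1 in CD34 high by edgeR's test. Plin1, the 1 adipocyte marker tested, was higher in CD34 low. The part of such cells in these values was not tested.

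Among 3 tested haem peroxidases, 2 passed (66.7%, against 35.6% over all genes). Pxdn, which crosslinks collagen IV, was at 526 ± 168 CPM in CD34 high and 291 ± 27.0 CPM (SD, n = 3) in CD34 low cells (log2 fold change 0.85, adjusted p = 0.0143, edgeR). It did not pass without pool 2 (adjusted p = 0.0651). Mpo, the myeloperoxidase, passed at very low levels (adjusted p = 0.00519, edgeR), with 3, 0 and 0 counts in CD34 high and 24, 11 and 19 counts in CD34 low pools 1, 2 and 3. Of the leukocyte markers, Lyz2 and Cd79a were also higher in CD34 low and Cd3e was higher in CD34 high, and their part in the Mpo counts was not tested.

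Of 7 other secreted scavengers, none was higher in CD34 high and 2 were higher in CD34 low (28.6%, against 35.6% over all genes). Cp, the copper ferroxidase ceruloplasmin, was at 50.4, 51.4 and 57.8 CPM in CD34 high and 178, 258 and 273 CPM in CD34 low pools 1, 2 and 3, a log2 fold change of -2.15 (adjusted p = 3.54e-05, edgeR). Prdx4, the peroxiredoxin of the secretory pathway, had a log2 fold change of -0.79 (adjusted p = 0.000473, edgeR). The other superoxide dismutases did not pass. Sod1 was at 94.7 ± 3.22 and 81.9 ± 2.52 CPM and Sod2 at 49.1 ± 18.7 and 43.6 ± 15.1 CPM (SD, n = 3) in CD34 high and CD34 low cells, genes named here after their values were seen. Of 6 tested genes in that list, only the copper importer Slc31a1 passed (16.7%, against 35.6% over all genes). It was higher in CD34 low, with a log2 fold change of -0.49 (adjusted p = 0.0209, edgeR). Slc31a1 lost the call without pool 1 (adjusted p = 0.115), without pool 3 (0.117), and without the CD34 high library of pool 2 or 3 (0.0674 and 0.0572) or the CD34 low library of pool 1 or 3 (0.0783 and 0.0689). With the pool block, the copper chaperone Atox1 also passed (adjusted p = 0.0126), as did Trf, transferrin, among the scavengers (0.0384).

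Among the other glutathione peroxidases and the genes for selenium use, 1 of 9 tested passed (11.1%, against 35.6% over all genes). Without pool 3 or its CD34 high library 2 passed, and nothing is read from that count. In the full set this was Pstk, a kinase in selenocysteine synthesis, higher in CD34 high by 0.64 log2 units (adjusted p = 0.0209, edgeR). That call was lost without pool 1 or pool 2 (adjusted p = 0.173 and 0.147), without the CD34 high library of pool 1 or pool 2 (0.0716 and 0.0806) and without the CD34 low library of pool 1 (0.0525).

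Of 13 genes for catalase, peroxiredoxins and thioredoxins, 6 passed (46.2%, against 35.6% over all genes), 5 of them higher in CD34 high and 1 in CD34 low. Prdx6, a cytosolic peroxidase with phospholipase activity, was at 383, 368 and 369 CPM in CD34 high and 126, 176 and 128 CPM in CD34 low pools 1, 2 and 3, a log2 fold change of 1.38 (adjusted p = 0.000195, edgeR). Txnrd3, a thioredoxin reductase, was higher by 0.99 log2 units (adjusted p = 0.00303, edgeR). Txnip, the inhibitor of thioredoxin, was lower in CD34 high, with a log2 fold change of -1.61 (adjusted p = 0.00426, edgeR). Of 8 genes of glutathione synthesis and recycling, 2 were higher in CD34 high and none in CD34 low (25.0%, against 35.6% over all genes). Without the CD34 high library of pool 3, 4 of the 8 passed, and nothing is read from that count. G6pdx, which supplies NADPH from glucose 6-phosphate, differed by 1.46 log2 units (adjusted p = 0.000124, edgeR), from 19.0 ± 2.41 CPM in CD34 low to 52.3 ± 7.84 CPM (SD, n = 3) in CD34 high cells. Gclc, the catalytic subunit of the rate-limiting enzyme of glutathione synthesis, differed by 1.00 log2 unit (adjusted p = 0.00314, edgeR). With the pool block 5 of the 8 passed, against 40.5% over all genes, with Gclm (adjusted p = 0.0189) and Gsr (0.0417) higher in CD34 high and Ggt5 (0.00755) higher in CD34 low. Prdx3 passed with the block as well (0.0413).

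Of 7 genes of the Nrf2 pathway, the main transcriptional response to oxidants, 2 were higher in CD34 high and none in CD34 low (28.6%, against 35.6% over all genes). These were Bach1 (log2 fold change 0.67, adjusted p = 0.0253, edgeR), a repressor of the response, and Keap1 (0.46, adjusted p = 0.0141, edgeR), the inhibitor of NRF2. Nfe2l2, which encodes NRF2, and the targets Nqo1 and Hmox1 stayed under the threshold at 0.05, -0.32 and 0.11 log2 units. These 3 were named after their values were seen. Keap1 did not pass without pool 1 (adjusted p = 0.0599) or pool 2 (0.130). Bach1 did not pass without pool 1 (0.0561) or pool 2 (0.115), nor without any single library of the 6 other than the CD34 high library of pool 3 and the CD34 low library of pool 1, with adjusted p from 0.0501 to 0.0733.

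**Figure D4:**
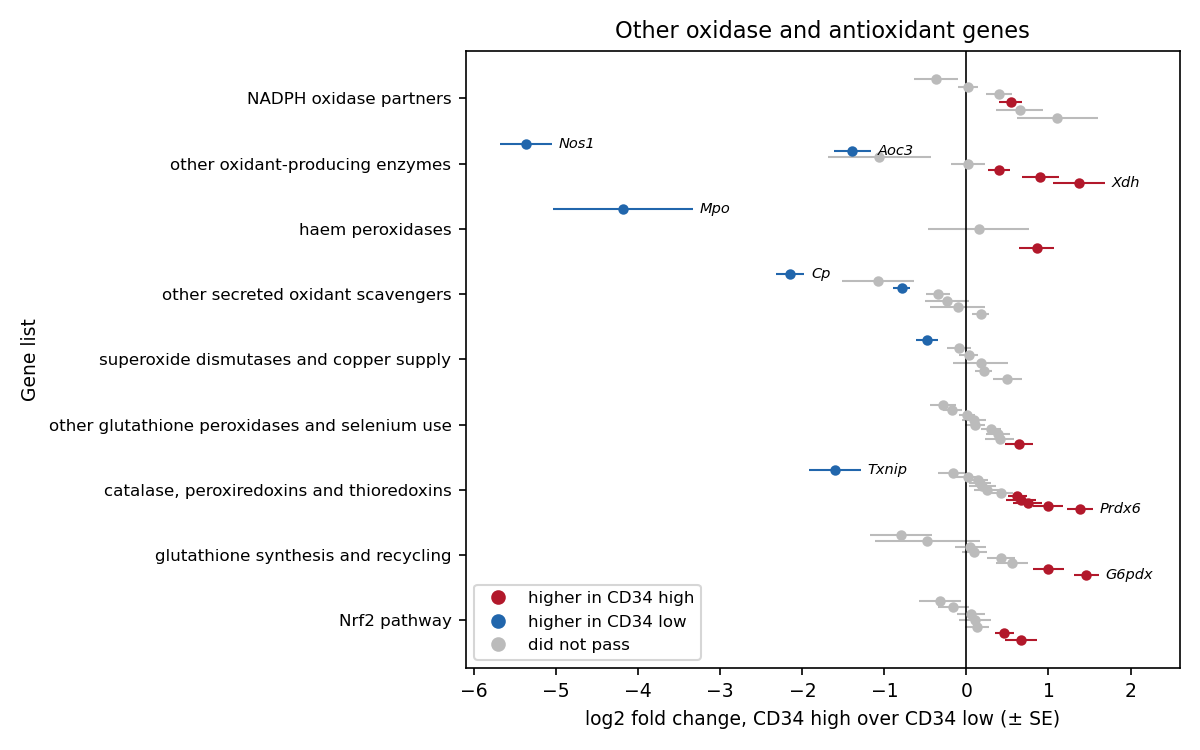
Log2 fold change of CD34 high over CD34 low ± SE for the 66 tested genes of the 9 other lists, 1 row per list, with genes past an adjusted p of 0.05 in red (higher in CD34 high) or blue (higher in CD34 low) and the others in grey. Most genes lie near 0, with Nos1 (-5.37) and Mpo far to the left and G6pdx (1.46), Prdx6 (1.38) and Xdh (1.37) to the right.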

How the data were processed

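Libraries were made from poly(A) RNA, per the labels, with the TruSeq RNA v2 protocol. Per the study's methods, reads were aligned to the mouse genome (GRCm38/mm10, also in the submitters' processing notes) and counted per gene with Rsubread by the authors. The annotation release, strand setting and handling of multi-mapped reads are not given in the sources used here. The deposited table holds raw counts per gene for the 6 libraries, with gene bounds and lengths. Of 27179 Entrez identifiers, 25275 were matched to a RefSeq symbol.

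The deposited counts were tested with edgeR 4.0.16 under R 4.3.3. The function filterByExpr kept 15219 genes, TMM factors were computed, and the fractions were compared with the quasi-likelihood test over all 6 libraries without a block (biological coefficient of variation 19.7%), with Benjamini-Hochberg adjustment over all genes. The script was tested on simulated data. Log2 CPM used a prior count of 2, and RPKM used the deposited lengths. Counting intervals are exact 95% intervals.

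The 10 genes, the 9 lists and the marker lists were chosen with earlier results of these data known. Named were the 10 genes, the genes of each list past the threshold with the 2 largest changes in each direction, the 3 genes on either side of the Duox genes, and the 5 genes most correlated with Duox1. Others are marked where they appear. Libraries of the same number come from the same mouse pool, per the labels, and their deviations from the group means correlated with r = 0.279, 0.0844 and 0.243 in pools 1, 2 and 3. No libraries were duplicates (between libraries of 1 fraction, chi-square divided by its degrees of freedom was never under 23.4). Alternatives were limma-voom (limma 3.58.1), DESeq2 1.42.0, other scalings and filters, thinned counts, the pool block and leaving out pools or libraries.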

Additional observations from a re-analysis of the deposited data

How the results depend on the processing

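Of 323 comparisons of 18 named genes outside the 10 with an alternative, 298 kept the call, 25 lost it and 0 reversed. With the replicate block, 6161 genes differed in place of 5411, and 30 in place of 22 of the other oxidase and antioxidant genes. The block changed no call among the 9 tested oxidase and antioxidant genes, from which nothing is read since they were chosen on this contrast. Leaving out pools or single libraries gave 3468 (without pool 1) to 5236 genes, and 14 (without pool 2) to 24 of the other genes. Fewer libraries enter those fits, and any further cause was not tested. Upper-quartile scaling put 42.2% of calls higher in CD34 high, against 47.5% with TMM. Depth limits Duoxa2, Cybb and the CD34 low values of Duox2, and Nox1 was not detectable.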
